A study of Homo sapiens with 8 samples.

Results

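The genes described here encode the receptors through which cells bind or take up fibrillar collagen. They are the collagen-binding integrin alpha subunits ITGA1, ITGA2, ITGA10 and ITGA11, their common beta subunit ITGB1, the discoidin domain receptors DDR1 and DDR2, and the endocytic collagen receptor MRC2. The 8 genes were chosen by name from 61228 genes in the count table, and all 8 passed the low-count filter that left 15568 genes for testing. ITGA11 passed it only through the knockout monolayers.

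RNA was sequenced from MDA-MB-231, an established human breast cancer line of the triple-negative type, isolated from a metastasis, in 8 libraries that form 4 groups of 2. Cells were nucleofected with Cas9 and guide RNAs against ETV1, ETV4 and ETV5, the PEA3 group of ETS transcription factors, or with control guides, and were then kept as monolayers on plastic (2D) or in gels of collagen I (3D). The label of the control gels names Cas9 beside the control guide, whereas that of the control monolayers names the guide alone. Whether those cells also received Cas9 is not stated, so in each comparison with them an effect of Cas9 cannot be told apart. Collagenase I at 37 °C freed the cells from the gels before lysis, a step the monolayers did not have, so an effect of the gel and an effect of its digestion cannot be told apart. No clone, culture time or single collagen concentration is given for the libraries in the sources used here, and nothing states that replicate libraries are separate cultures, so p-values measure only the spread between these libraries. Bulk libraries also do not separate fewer cells expressing a gene from less RNA per cell.

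Integrins are heterodimers of an alpha and a beta chain. The 4 collagen-binding alpha chains carry an inserted I domain that recognises triple-helical collagen, and each pairs only with beta 1. Alpha 1 is known for its preference for basement membrane collagen IV and alpha 2 for fibrillar collagen I, while alpha 10 is best known in cartilage and alpha 11 in fibroblasts. Discoidin domain receptors are receptor tyrosine kinases activated by collagen itself, DDR1 mainly in epithelial cells and DDR2 mainly in mesenchymal cells. MRC2, also called Endo180 or uPARAP, carries collagen fragments to lysosomes and associates with the urokinase receptor.

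On GRCh38 (GENCODE release 29), ITGA1 lies on chromosome 5 from 52787896 to 52959210 and ITGA2 follows it on the same strand from 52989326 to 53094779. ITGA10 lies on chromosome 1 from 145891208 to 145910189, ITGA11 on chromosome 15 from 68296533 to 68432162 and ITGB1 on chromosome 10 from 32900319 to 33005792, all on the minus strand. DDR1 lies on chromosome 6 from 30876421 to 30900156, DDR2 on chromosome 1 from 162631373 to 162787400 and MRC2 on chromosome 17 from 62627401 to 62693597, all on the plus strand. For the counting, no strand setting is given in the sources used here, so reads of overlapping genes cannot all be assigned. The exons of MRC2 share 9.85% of their bases with AC080038.3 and 2.77% with AC080038.1, both on the opposite strand, and the exons of ITGA1 share 2.56% with PELO on the same strand.

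Because the targeted factors bind DNA with a GGAA core, the promoter sequence of the genes is shown for the members that the results turn on: ITGA1 and ITGA2, which are neighbours but moved in opposite directions in control gels, ITGB1, whose knockout values did not pass in either culture, and DDR1, which was lower in knockout gels. RefSeq windows (GRCh38.p14) of 250 bases before to 50 after a start were matched for 7 of the 8 members, with 17 windows in all. MRC2 had none. Only the bases outside annotated exons are printed, 5′ to 3′ on the strand of the gene, and capitals mark GGAA or its reverse complement TTCC.
ITGA1, chr5:52787666-52787895, plus strand: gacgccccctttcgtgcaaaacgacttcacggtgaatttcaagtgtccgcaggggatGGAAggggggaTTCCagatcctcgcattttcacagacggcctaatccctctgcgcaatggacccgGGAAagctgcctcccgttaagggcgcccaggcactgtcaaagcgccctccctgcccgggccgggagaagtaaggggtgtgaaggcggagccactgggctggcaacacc
ITGA2, chr5:52989102-52989325, plus strand: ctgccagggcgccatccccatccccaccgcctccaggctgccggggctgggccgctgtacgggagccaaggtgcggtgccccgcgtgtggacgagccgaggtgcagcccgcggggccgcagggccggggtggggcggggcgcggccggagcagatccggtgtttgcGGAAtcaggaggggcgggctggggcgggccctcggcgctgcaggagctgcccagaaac
ITGB1, chr10:32958233-32958480, minus strand: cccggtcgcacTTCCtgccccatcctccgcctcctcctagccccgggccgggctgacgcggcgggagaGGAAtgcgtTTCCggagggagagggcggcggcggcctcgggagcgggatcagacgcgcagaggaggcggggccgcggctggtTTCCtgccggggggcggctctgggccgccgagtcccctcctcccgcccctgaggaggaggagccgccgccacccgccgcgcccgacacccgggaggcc
DDR1, chr6:30884269-30884352, plus strand: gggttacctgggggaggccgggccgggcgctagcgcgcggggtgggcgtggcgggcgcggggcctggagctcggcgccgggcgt

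Counted over the whole windows and on both strands, the core GGAA occurred 4 times in the ITGA1 window, 2 times in that of ITGA2, 5 times in that of ITGB1 and 3 times in the DDR1 window shown, where all 3 lie in the bases not printed. GGAA occurs in 95.5% of all 35116 RefSeq windows of 300 bases, so its presence sets none of these genes apart. The longer match AGGAAG, which contains GGAA and occurs in 33.6% of windows, was found in the ITGA1, ITGB1 and DDR1 windows shown and not in that of ITGA2. CCGGAA, also holding GGAA and found in 17.2% of windows, occurred in the ITGB1 and DDR1 windows. The AP-1 letters TGANTCA, in 7.71% of windows, occurred in none of the 4 windows shown. DDR1 has 8 windows, and gene counts do not say which start was used. CCGGAA occurred only in the DDR1 window shown, AGGAAG also in that from 30883834, and TGANTCA in that from 30888438. ITGB1 has 2 windows, and the one not shown held neither AGGAAG nor CCGGAA. The matches of a window shown thus do not stand for the whole gene. A letter match is a description and shows no binding.

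Library totals ran from 15824504 to 23896899 counts. The unit of level is CPM, a count divided by the effective library size (the total times its TMM factor), and differences are given as log2 with the SE of the edgeR quasi-likelihood fit over all 8 libraries. A change was called where the Benjamini-Hochberg adjusted p over all tested genes was under 0.05. The fit had 4 residual degrees of freedom, and the p-values draw largely on spread shared across genes. Of the targeted genes, ETV1 and ETV4 were lower in the knockout libraries of both cultures (in gels by 0.66 and 0.57 on the log2 scale, adjusted p = 3.1e-12 and 3.61e-09, edgeR), while ETV5 was at 110 to 119 CPM in all 8 libraries and passed in neither. Gene counts do not show whether or how far each of these genes was edited. The identity of the line was checked with marker genes. All 7 mesenchymal and basal markers of the line were tested and summed to 9319 to 12199 CPM, whereas ESR1, PGR and CDH1 reached at most 2, 2 and 7 counts. Of 10 fibroblast markers 8 stayed under 1 CPM everywhere, with sums of 19.0 to 19.1 CPM in control monolayers, 24.5 to 25.3 in knockout monolayers, 13.6 to 13.8 in control gels and 12.3 to 14.4 in knockout gels. Leukocyte markers summed to 1.10 to 3.08 CPM and endothelial markers to 7.18 to 12.5 CPM. Of 9 luminal markers 6 were tested, with KRT8 at 386 to 554 CPM, KRT18 at 288 to 379, ERBB2 at 56.4 to 69.4, EPCAM at 12.9 to 23.0, GATA3 at 7.53 to 12.7 and FOXA1 at 1.73 to 3.11 CPM. The luminal list summed to 766 to 829 CPM in control monolayers, 937 to 989 in knockout monolayers, 870 to 892 in control gels and 1014 to 1026 in knockout gels. KRT8, KRT18 and GATA3 were higher with the knockout on plastic (log2 0.32, 0.31 and 0.58, adjusted p = 6.91e-06, 5.44e-06 and 0.00108, edgeR) and in gels (0.21, 0.28 and 0.45, adjusted p = 0.00154, 1.76e-05 and 0.00677). ERBB2, EPCAM and FOXA1 passed in neither culture (-0.15, -0.13 and 0.08 on plastic, -0.15, 0.10 and 0.62 in gels). Of the 7 mesenchymal and basal markers 2 were higher and 4 lower with the knockout on plastic, and 2 higher and 2 lower in gels. Of all tested genes 9.60% went each way on plastic, and 11.5% were higher and 12.4% lower in gels. The part of these markers in the results below was not tested.

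Compared per length, as CPM per kb of annotated exon, the receptors kept most of their order in every group. ITGB1 stood highest at 164 ± 3.40 CPM per kb in control monolayers (SD, n = 2), followed by ITGA2 at 57.1 ± 3.18. ITGA10, MRC2 and DDR1 followed at 13.0 ± 3.01, 10.5 ± 0.292 and 6.94 ± 0.0391 CPM per kb, and their order among themselves changed when the longest transcript replaced all annotated exons as the length. ITGA1 reached 2.44 ± 0.156 CPM per kb, DDR2 0.233 ± 0.0103 and ITGA11 0.0244 ± 0.00218. The libraries of neighbours in this order overlapped only for DDR2 and ITGA11 in knockout monolayers and for ITGA10 and DDR1 in knockout gels. In every group ITGA2 was the most abundant collagen-binding alpha chain and DDR1 exceeded DDR2.

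**Figure D1:**
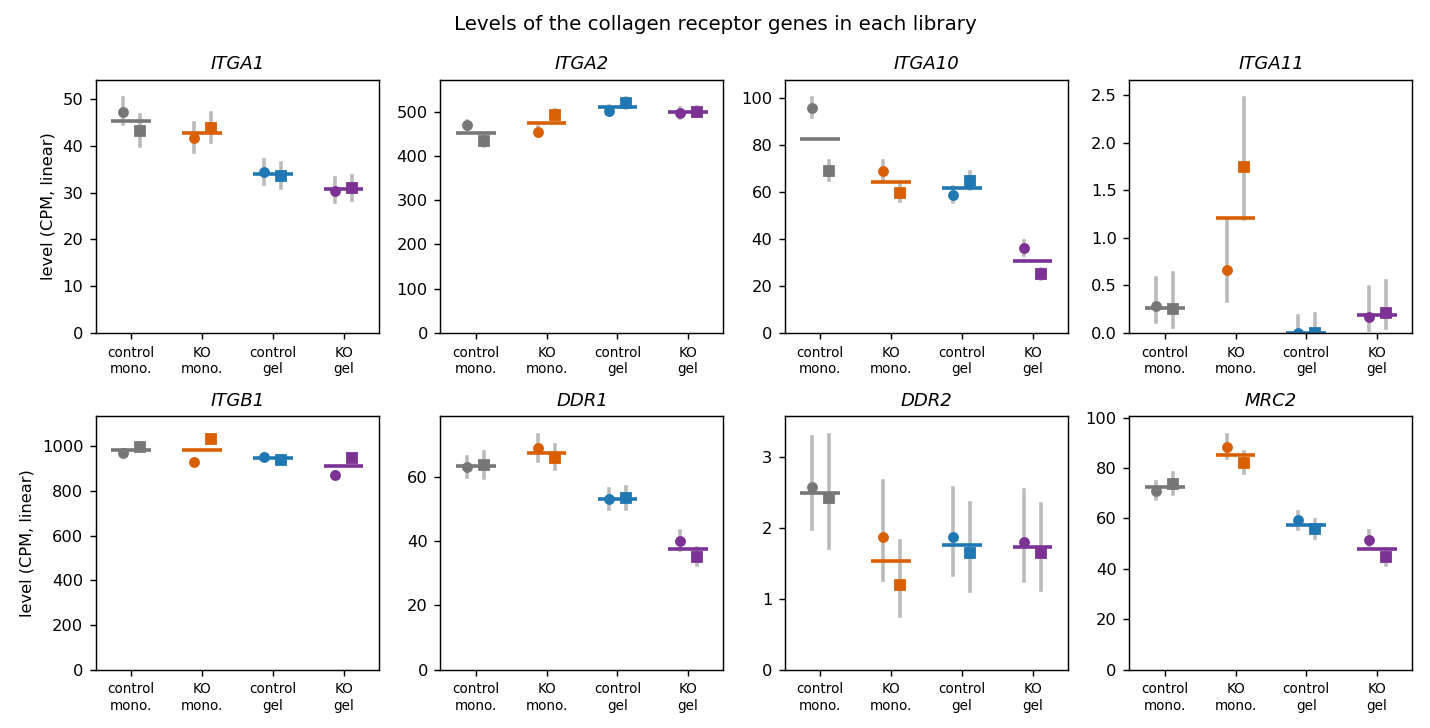
Level of each gene in CPM (linear axis from 0) in the 2 libraries of each group, circles for replicate 1 and squares for replicate 2, with a line at the group mean and grey bars for the 95% counting interval of a library. DDR1, MRC2, ITGA10 and ITGA1 have their lowest values in knockout gels. ITGA2 and ITGB1 stay within 434 to 519 and 873 to 1035 CPM, and the lowest ITGB1 library is also a knockout gel.

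ITGA2, the most abundant collagen-binding alpha chain of the line, was higher in control gels than in control monolayers and did not pass for the knockout in either culture. Its level was 469 and 434 CPM in control monolayers, 454 and 492 in knockout monolayers, 502 and 519 in control gels, and 497 and 499.9 in knockout gels. Both gel groups lay above both control monolayers, and the knockout monolayers overlapped the controls. The change from monolayers to gels was a rise of 0.18 ± 0.048 on the log2 scale in control cells (13.0%, adjusted p = 0.00556, edgeR). In knockout cells it was 0.07 (adjusted p = 0.231). The rise in control cells was lost with library size alone as the scaling (log2 0.09, adjusted p = 0.152), without control monolayer 2 (0.0718) and without control gel 2 (0.0884). The knockout effect was 0.07 in monolayers (95% interval -0.03 to 0.17), which passed with an offset for transcript length and GC content (0.15, adjusted p = 0.0119), and -0.03 in gels (-0.13 to 0.06).

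ITGA1, whose gene lies 30115 bases upstream of ITGA2, fell in gels in control and in knockout cells. It stood at 47.3 and 43.2 CPM in control monolayers, 41.7 and 43.8 in knockout monolayers, 34.3 and 33.5 in control gels and 30.4 and 30.9 in knockout gels. All 4 gel libraries were below all 4 monolayers. The change with the gel was -0.42 ± 0.072 on the log2 scale in control cells (adjusted p = 3.47e-05, edgeR) and -0.48 ± 0.075 in knockout cells (adjusted p = 4.31e-06), and both calls held in all 17 alternative settings. The knockout effects, -0.09 and -0.15, did not pass (adjusted p = 0.439 and 0.166). PELO, the gene that overlaps ITGA1 on the same strand, averaged 59.8 to 61.0 CPM in the 4 groups and passed in no comparison.

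ITGA10 had its lowest values in knockout gels but varied strongly between replicates. It was at 95.8 and 68.9 CPM in control monolayers, 69.1 and 59.4 in knockout monolayers, 58.9 and 64.8 in control gels and 36.1 and 25.0 in knockout gels. The replicate libraries differed 1.39-fold in control monolayers and 1.44-fold in knockout gels, and the fit had 4.3 degrees of freedom for this gene. Knockout gels were lower than control gels by a log2 of -1.02 ± 0.27, which did not pass (adjusted p = 0.063, edgeR), though it did by DESeq2 (0.0013) and limma-voom (1.71e-05), over a range of 1.71e-05 to 0.228 in all alternatives. The fall from monolayers to gels in knockout cells was -1.07 ± 0.27 (adjusted p = 0.0382), and it was lost in 7 of 17 alternatives, among them the fits without either knockout gel (0.0523 and 0.143). In control cells the gel change was -0.43 and in monolayers the knockout effect was -0.37 (adjusted p = 0.275 and 0.389).

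ITGA11, the collagen I subunit of fibroblasts, was a trace transcript in these cells. It had 7 and 4 counts in control monolayers, 11 and 32 in knockout monolayers, 0 and 0 in control gels and 3 and 4 in knockout gels. The second knockout monolayer stood above the 7 other libraries. The 2 control gels together allow up to 0.0768 CPM (3 counts). The pooled level was 16.0 times this ceiling in knockout monolayers, 3.50 times in control monolayers and 2.46 times in knockout gels. These folds leave out the counting error of the 43, 11 and 7 pooled counts, so they are not lower bounds. The pooled ratio of knockout monolayers to knockout gels was 6.53, given as a description only, since the 2 knockout monolayers differed 2.63-fold. The tests against the control gels passed (adjusted p = 0.037 against knockout gels and 0.0108 against control monolayers, edgeR). Both calls were lost without either control gel, the first also without either knockout gel, and the second also without control monolayer 1 (0.0628). Because ITGA11 entered the test only through the knockout monolayers, no test is given for the comparisons with them.

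ITGB1, the shared beta chain of all collagen-binding integrins, had no call in any comparison with TMM scaling and all libraries. It stood at 969 and 998 CPM in control monolayers, 931 and 1035 in knockout monolayers, 951 and 941 in control gels, and 873 and 948 in knockout gels. The groups overlapped in 3 of the 4 pairwise comparisons, and control gels lay just below control monolayers. Its knockout effect was 0.00 in monolayers (95% interval -0.10 to 0.10) and -0.05 in gels (-0.16 to 0.05), and its gel effect was -0.06 in control cells and -0.11 in knockout cells (adjusted p = 0.429 and 0.0771, edgeR). With library size alone both gel effects passed, at -0.14 (adjusted p = 0.0284) and -0.18 (adjusted p = 0.00401). The fall in knockout cells also passed with upper-quartile factors (-0.16, adjusted p = 0.00896), without knockout monolayer 1 (0.0292) and without knockout gel 2 (0.0296), so in 4 of 17 alternatives. The processed pseudogene ITGB1P1, which could take reads of ITGB1, averaged 1.80 to 2.67 CPM in the groups.

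Per length, the collagen-binding chains made up 22.9 to 24.3% (group means) of the alpha chains that can pair with beta 1, and ITGA2 made up most of them. The 4 collagen-binding chains made up 23.9 ± 2.48% of the 12 alpha chains in control monolayers, 24.3 ± 0.365% in knockout monolayers, 22.9 ± 0.275% in control gels and 23.6 ± 0.391% in knockout gels (SD, n = 2). Of the collagen-binding chains, ITGA2 made up 77.0 and 80.5% in the control monolayers, 81.3 and 83.9% in the knockout monolayers, 85.0 and 84.5% in the control gels and 89.5 and 91.8% in the knockout gels. These values did not overlap between the groups, but some stood as close as 83.9 and 84.5%, and the shares were not tested. ITGA10 went from 17.8 ± 2.59% to 6.94 ± 1.69% between control monolayers and knockout gels, and ITGA1 from 3.36 ± 0.0787% to 2.38 ± 0.0609%. The ratio of ITGA2 to ITGA1 was 23.4 ± 0.198, 26.0 ± 0.571, 35.3 ± 1.43 and 38.1 ± 0.294 in control monolayers, knockout monolayers, control gels and knockout gels. These shares and ratios are of transcript per length, and their size depends on the length used, which the SDs do not cover. With the longest transcript as the length, control monolayers had 57.4 CPM per kb of ITGA2 and 4.21 of ITGA1. With all annotated exons these were 57.1 and 2.44. Some of the other alpha chains, such as alpha 6 and alpha V, also pair with other beta chains.

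**Figure D2:**
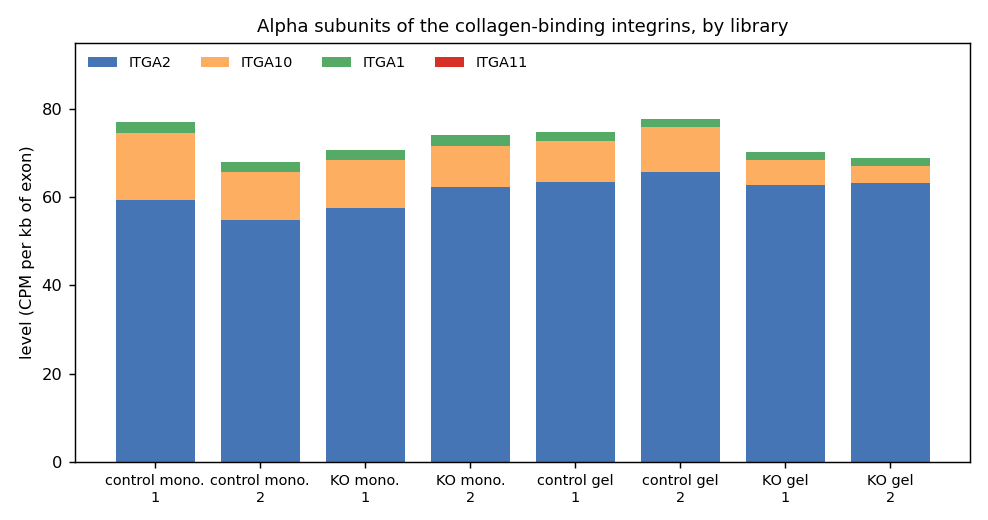
Stacked levels, in CPM per kb of exon, of the 4 collagen-binding alpha subunits in each library, with replicate numbers on the horizontal axis. ITGA2 holds 77.0 to 91.8% of each bar, the ITGA10 part is smallest in the knockout gels, and ITGA11 is too low to be seen.

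DDR1, the collagen-activated kinase of epithelial cells, was lower in knockout than in control cells in gels but not on plastic. Its level was 63.0 and 63.5 CPM in control monolayers, 68.8 and 65.9 in knockout monolayers, 53.1 and 53.3 in control gels, and 40.1 and 35.2 in knockout gels. No group overlapped another, and the knockout libraries were the highest on plastic and the lowest in gels. In gels the knockout effect was -0.50 ± 0.069 on the log2 scale (-29.3%, adjusted p = 9.65e-07, edgeR), and in monolayers it was 0.09 ± 0.065 (adjusted p = 0.368). The interaction, that is the effect in gels less the effect on plastic, was -0.59 ± 0.095 (adjusted p = 6.54e-05). From monolayers to gels DDR1 fell by 0.25 in control cells (adjusted p = 0.00405) and by 0.84 in knockout cells (adjusted p = 8.24e-12). Except for the fall in control cells, which was lost without control gel 1 (0.0564), these calls held in all 17 alternative settings.

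DDR2, the discoidin receptor of mesenchymal cells, was rare in every group. It had 64 and 39 counts in control monolayers, 31 and 22 in knockout monolayers, 39 and 30 in control gels and 33 and 31 in knockout gels, or 1.20 to 2.58 CPM over all libraries. Both control monolayers were above the 6 other libraries. The knockout effect on plastic was -0.72 ± 0.27 on the log2 scale and missed the threshold (adjusted p = 0.0618, edgeR), while 3 of 17 alternatives called it. No other comparison of DDR2 passed (adjusted p = 0.149 to 0.953), and with these counts its 95% interval in gels, -0.61 to 0.54, was wide. The per-length ratio of DDR1 to DDR2 was 29.8 ± 1.49 in control monolayers, 53.9 ± 15.1 in knockout monolayers, 35.7 ± 3.35 in control gels and 25.6 ± 0.663 in knockout gels. Its size depends on the length used. With the longest transcript, control monolayers had 15.3 CPM per kb of DDR1 and 0.246 of DDR2, and with all annotated exons 6.94 and 0.233.

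MRC2, the receptor that internalises collagen fragments, moved with the knockout in opposite directions in the 2 cultures. It stood at 70.9 and 73.7 CPM in control monolayers, 88.4 and 82.0 in knockout monolayers, 59.2 and 55.7 in control gels, and 51.5 and 44.7 in knockout gels. No group overlapped another. With the knockout it was higher on plastic (log2 0.24 ± 0.065, 17.9%, adjusted p = 0.00765, edgeR) and lower in gels (-0.26 ± 0.069, -16.5%, adjusted p = 0.00527), with an interaction of -0.50 ± 0.095 (adjusted p = 0.00066). The rise was lost without control monolayer 1 (adjusted p = 0.127) or knockout monolayer 1 (0.168), and the fall without control gel 1 (0.114), without knockout gel 2 (0.167) and with an offset for transcript length and GC content (log2 -0.10, adjusted p = 0.228). The interaction held in all 17 alternatives. MRC2 also fell from monolayers to gels, by 0.33 in control cells (adjusted p = 0.000298) and by 0.82 in knockout cells (adjusted p = 8.89e-12).

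DDR1 and MRC2 have GC-rich transcripts, and across genes the interaction moved with GC content. The longest transcripts of DDR1 and MRC2 hold 61.6 and 63.7% GC, that of ITGA10 53.2%, and those of the other members 38.8 to 49.6%. Over 12238 genes Spearman's rho of the interaction was -0.29 with GC content and 0.146 with length (genes are not independent replicates). With the length and GC offset, the interaction was -0.395 for DDR1 (adjusted p = 0.00156, edgeR) and -0.34 for MRC2 (adjusted p = 0.00518), and DDR1 in gels was -0.35 (adjusted p = 2.12e-05).

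**Figure D3:**
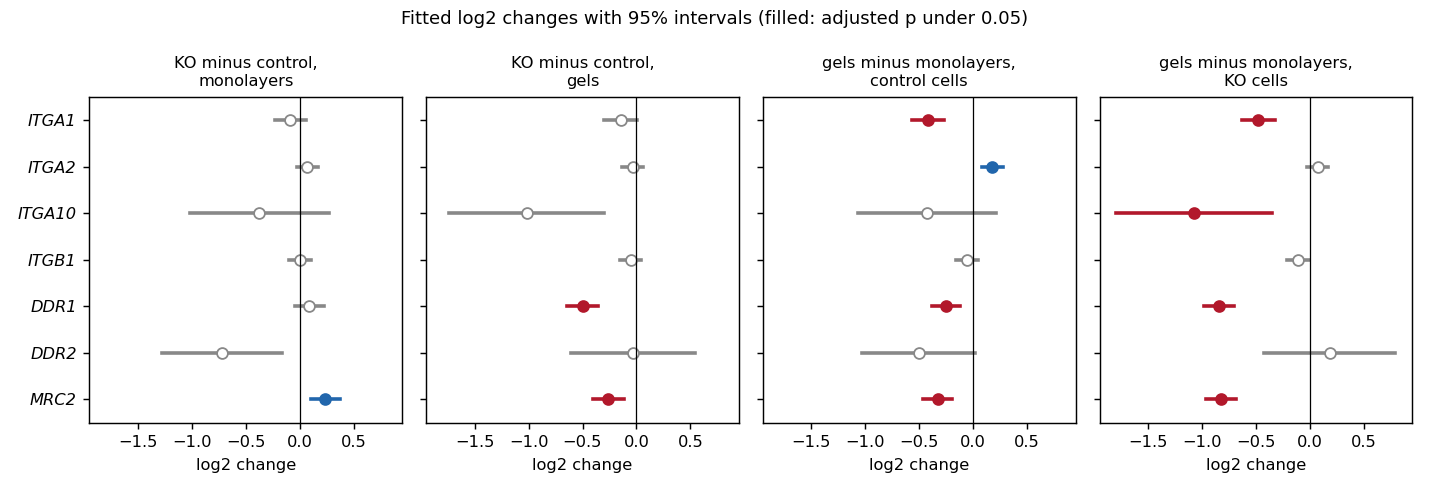
Fitted log2 changes (horizontal axis) of 7 receptor genes with 95% intervals in 4 comparisons, filled where the adjusted p was under 0.05, blue for higher and red for lower. ITGA11 is left out because its control gels had 0 counts. Between gels and monolayers of knockout cells DDR1 and MRC2 stand at -0.84 and -0.82, with short intervals, and ITGA10 at -1.07 with a wide one.

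Members called are counted here beside all tested genes, without ITGA11, whose entry into the test depended on 1 group. In control cells 3 of 7 members were lower in gels (ITGA1, DDR1, MRC2) and 1, ITGA2, was higher, where 10.7% of all tested genes were lower and 16.0% higher. In knockout cells 4 of 7 were lower, ITGA10 besides those 3, and 0 higher, against 17.9% lower and 20.1% higher of all genes. The median log2 change of the 7 members was -0.33 in control and -0.48 in knockout cells, beside 0.01 and -0.01 over all tested genes. For the knockout in gels 2 members were lower and 0 higher, with 12.4% of all genes lower and 11.5% higher, and member and overall medians of -0.15 and 0.00. In monolayers 1 member was higher and 0 lower with the knockout, with 9.60% of genes higher and 9.60% lower, and medians of 0.00 and 0.01. The interaction was called lower for 2 members and higher for 0, against 3.94% and 2.67% of all genes, with medians of -0.10 and -0.02. The ITGA11 calls against control gels are given above. Its calls in comparisons with knockout monolayers are not counted here, because that group alone let it into the test. The comparisons share libraries, so these counts are not independent of each other. The members were also chosen with earlier results of these data known, so the counts are descriptions only.

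How calls over all genes split between higher and lower depended on the scaling. In control cells 2486 genes were higher and 1672 lower in gels, but 1239 and 2804 with library size alone and 1699 and 2213 with upper-quartile factors. With library size alone 0 members were higher and 5 lower there, ITGA11 among them. In knockout cells the split was 3122 higher and 2793 lower, but 2089 and 3539 with library size alone, 2293 and 3360 with upper-quartile factors, and 4205 and 2384 with the length and GC offset. Both of the first 2 of these scalings called 0 members higher and 6 lower. ITGA11 was among the 6, but its call carries no weight, as the knockout monolayers alone let it into the test. For the knockout in gels 1786 genes were higher and 1935 lower, but 2923 and 1693 with the length and GC offset. There the 1 member higher was ITGA11 and the 1 lower was DDR1, while MRC2 did not pass. By the interaction 415 were higher and 613 lower, but 729 and 468 with that offset.

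**Figure D4:**
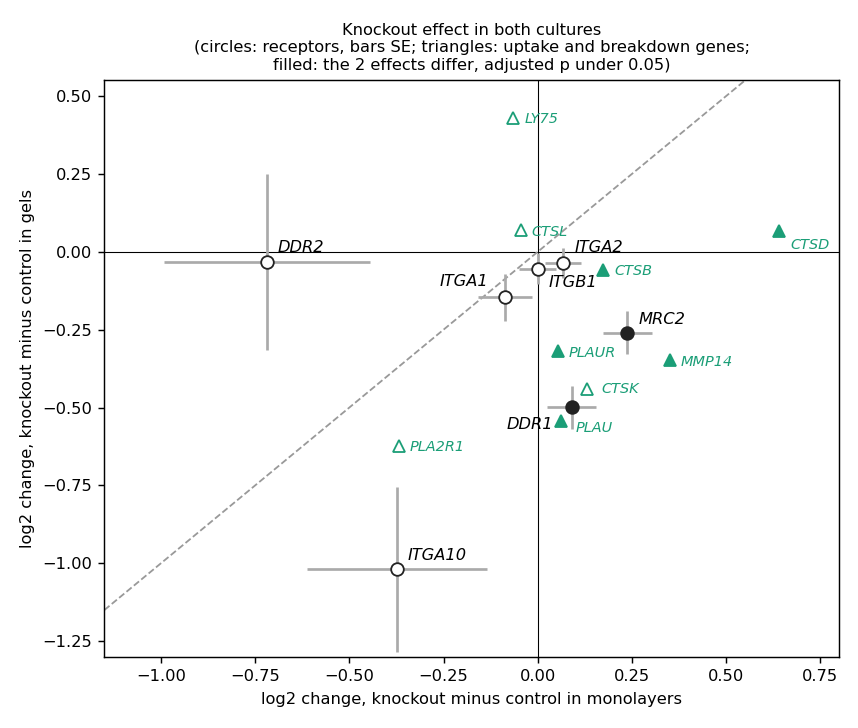
Log2 change with the knockout in monolayers (horizontal) against that in gels (vertical) for 7 receptor genes (circles, bars 1 SE) and 9 genes of collagen uptake and breakdown (triangles), filled where the 2 effects differed by the interaction test and with a dashed line where they would be equal. The filled points, DDR1 at 0.09 and -0.50, MRC2 at 0.24 and -0.26, PLAU, MMP14, PLAUR, CTSB and CTSD, all lie below the line.

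Genes that act with MRC2 in collagen breakdown included several with the same sign of interaction. This list and those below were chosen with earlier results of these data known, so their counts are descriptions only. Of 9 tested genes for uptake and breakdown of collagen, 5 were lower by the interaction and 0 higher: PLAU, the urokinase gene, PLAUR, its receptor, MMP14, the membrane-anchored collagenase, and the lysosomal proteases CTSB and CTSD. Of all tested genes 3.94% were lower and 2.67% higher. The median interaction of the 9 was -0.37, beside -0.02 over all tested genes. MMP14 went from 831 ± 42.1 to 1059 ± 21.7 CPM with the knockout on plastic and from 1067 ± 8.72 to 838 ± 25.3 CPM in gels (interaction log2 -0.70 ± 0.065, adjusted p = 1.97e-09, edgeR). PLAU was at 447 and 466 CPM (group means) in control and knockout monolayers and at 439 ± 3.26 and 301 ± 5.38 CPM in the gels (interaction -0.61 ± 0.062, adjusted p = 1.7e-08). In the separate comparisons 3 of the 9 were higher with the knockout on plastic and 0 lower, and 4 were lower in gels and 0 higher (of all genes, 9.60% were higher on plastic and 12.4% lower in gels). PLA2R1, a relative of MRC2 in the mannose receptor family, went from 3.33 ± 0.0238 to 2.16 ± 0.504 CPM in gels with the knockout (log2 -0.62, adjusted p = 0.0387) and had no interaction call (adjusted p = 0.686).

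Integrin chains outside the collagen-binding set were measured beside it. Of 5 tested alpha chains that bind other ligands, 3 were lower in knockout than in control gels and 0 higher: ITGA5, the fibronectin receptor subunit, ITGA3 and ITGA6, the laminin receptor subunits. Of all tested genes 12.4% were lower and 11.5% higher there, and the medians were -0.21 for the 5 chains and 0.00 over all genes. ITGA5 went from 180 ± 4.43 to 152 ± 0.476 CPM (log2 -0.25, adjusted p = 0.00118, edgeR), with an interaction of -0.38 (adjusted p = 0.00155). ITGA6 rose from monolayers to gels in control and knockout cells (0.25 and 0.21, adjusted p = 0.000112 and 0.000606), where ITGA1 fell. Of 5 tested beta chains 4 were lower with the knockout in gels and 1 higher, and on plastic 3 were lower and 1 higher, where 9.60% of all genes were lower and 9.60% higher. ITGB4, the partner of alpha 6 in hemidesmosomes, went from 533 ± 32.6 to 166 ± 1.71 CPM in gels (log2 -1.68 ± 0.052, adjusted p = 4.22e-23), ITGB3 from 5.69 ± 0.442 to 2.24 ± 0.0663 CPM and ITGB2 from 24.9 ± 1.53 to 14.2 ± 0.305 CPM.

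Inside the cell, integrins connect to actin through adaptors such as talins, kindlins and tensins. Of 33 tested adaptors and activators 13 were lower and 4 higher with the knockout in gels, and 10 lower and 3 higher on plastic. Of all tested genes 12.4% were lower and 11.5% higher in gels, and 9.60% lower and 9.60% higher on plastic. The medians of the adaptors were -0.10 and -0.05, beside 0.00 and 0.01 over all genes. The named members were TNS1, a tensin, at 2.46 ± 0.602 and 0.947 ± 0.211 CPM in control and knockout gels (log2 -1.38, adjusted p = 0.000854, edgeR), TNS4, another tensin, at 6.77 ± 1.22 and 2.68 ± 0.554 CPM (-1.33, adjusted p = 1.23e-06), and LIMS2, a partner of integrin-linked kinase, at 20.2 ± 2.15 and 13.2 ± 2.46 CPM (-0.63, adjusted p = 0.000789). By the interaction 2 were lower and 0 higher, where 3.94% of all genes were lower and 2.67% higher.

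Partners and sheddases of the discoidin receptors showed no common direction. Of 13 tested genes 1 was higher and 3 lower with the knockout in gels, and 4 were higher and 4 lower on plastic, with medians of -0.01 and 0.07. All tested genes had 11.5% higher and 12.4% lower in gels and 9.60% each way on plastic. PRKCA, a protein kinase C gene, was lower in gels (log2 -0.35, adjusted p = 1.45e-06, edgeR) and on plastic (-0.45, adjusted p = 2.16e-08). TM4SF1, a tetraspanin-like protein that links DDR1 to protein kinase C, went from 358 ± 0.446 to 320 ± 0.622 CPM in gels (-0.16, adjusted p = 0.0151). It rose from monolayers to gels in control cells (0.49, adjusted p = 1.69e-09), where DDR1 fell. MMP14, which also sheds DDR1, is given above.

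Of 5 other collagen receptors 2 were tested, and ADGRG1, an adhesion G protein-coupled receptor for collagen III, passed in every comparison. It was at 108 ± 13.7 CPM in control monolayers, 91.4 ± 2.26 in knockout monolayers, 195 ± 3.45 in control gels and 125 ± 7.64 in knockout gels. It thus rose in gels (log2 0.85 in control cells, adjusted p = 1.45e-09, edgeR), and its knockout effect was -0.24 on plastic and -0.65 in gels (adjusted p = 0.0158 and 7.98e-08; interaction -0.41, adjusted p = 0.00858). OSCAR, the second tested gene, passed in none.

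Transcripts of the collagens that these receptors bind were mostly lower in gels. Of 8 tested chains 5 were lower and 1 higher in control gels against control monolayers, and 6 lower and 1 higher in knockout cells. Of all tested genes 10.7% were lower and 16.0% higher in control cells, and 17.9% lower and 20.1% higher in knockout cells. The chain that rose in both was COL6A1, a collagen VI chain (log2 0.67 in control and 0.19 in knockout cells, adjusted p = 7.6e-12 and 0.00749, edgeR). With the knockout 5 were lower and 0 higher in gels, and 3 higher and 1 lower on plastic, with 4 lower and 0 higher by the interaction. The shares of all genes were 12.4% lower and 11.5% higher in gels, 9.60% each way on plastic, and 3.94% lower and 2.67% higher by the interaction. COL6A1 went from 142 ± 3.70 to 88.9 ± 3.21 CPM with the knockout in gels (log2 -0.68 ± 0.053, adjusted p = 4.22e-12, edgeR), COL6A2 from 12.4 ± 0.226 to 7.80 ± 0.435 CPM (-0.67, adjusted p = 0.000103), and COL4A2, a basement membrane chain that alpha 1 beta 1 binds, from 270 ± 2.14 to 228 ± 3.23 CPM (-0.24, adjusted p = 0.000168).

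Across the 8 libraries the members followed a few shared patterns, given here as descriptions over libraries that share their groups. DDR1 and MRC2 had a Pearson r of 0.949 in log2 CPM, DDR1 and ITGA10 0.901, and DDR1 and ITGA1 0.885. ITGA2 ran against ITGA1, with an r of -0.679. Among 10830 or 10831 other genes, the closest to DDR1 were TPP1 (r = 0.997) and YPEL3 (0.991), to MRC2 DCAF8 (0.989) and TOB2 (0.987), and to ITGA1 HMBOX1 (0.995) and LSM11 (0.994). For ITGA10 they were SEC31B (0.996) and ADGRL1-AS1 (0.994), for ITGA2 GRPEL2 (0.989) and MRPL23 (0.962), and for ITGB1 RDX (0.960) and RAB9A (0.959). The rare members came closest to SCG2 (0.987) and SLC38A2 (0.985) for ITGA11 and to SLC15A4 (0.955) and REXO5 (0.941) for DDR2. ITGB1 and ITGA2 moved over ranges of only 0.25 and 0.26 on the log2 scale, and ITGA10 over 1.93.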

How the data were processed

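Per the labels' protocols, poly(A) libraries came from a stranded mRNA kit. Per the submitters' processing notes, FastQC 0.11.9, STAR 2.7.9a, the hg38 build, featureCounts and R 4.1.1 were used. For featureCounts, no version, annotation or strand setting is given in the sources used here. The authors deposited raw counts per gene symbol.

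From these, edgeR 4.0.16 in R 4.3.3 (limma 3.58.1) kept genes that passed filterByExpr (minimum count 10), which hold 99.89% of counts, scaled them by TMM and fitted 4 group means over all 8 libraries by robust quasi-likelihood. The common dispersion of 0.00163 corresponds to a coefficient of variation of 4.03%. The 5 contrasts were tested two-sided with Benjamini-Hochberg adjustment over 15568 genes. The totals of 15824504 to 23896899 counts leave at most 64 counts a library for DDR2 and 32 for ITGA11. Intervals of single libraries are exact Poisson and cover counting error only. Lengths, GC content and positions are from GENCODE 29, promoter windows from RefSeq. The fit was tested on simulated counts with known changes in knockout gels. Every gene was drawn with the same common dispersion, so this says nothing of members with a wider spread, such as ITGA10.

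The rule named all 8 members, up to 3 called genes of each list by the size of the knockout effect in gels, and the 2 genes most correlated with each member, with a mean of at least 5 CPM. Members and lists were chosen with earlier results of these data known. Alternatives were DESeq2 1.42.0, limma-voom, other scalings and filters, a length and GC offset, a replicate block and each library left out. Replicate differences of the groups had correlations of -0.0629 to 0.0817, so the numbers were not taken as pairs.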

Additional observations from a re-analysis of the deposited data

Results flagged for a closer look

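The knockout effect differed between gels and monolayers for 2 members by the interaction test, over all 8 libraries with edgeR. DDR1 had an interaction of -0.59 on the log2 scale (adjusted p = 6.54e-05), with knockout libraries highest on plastic and lowest in gels. MRC2 had an interaction of -0.497 (adjusted p = 0.00066), with both knockout libraries above both controls on plastic and below both in gels. Over all 17 alternative settings the interaction ranged from -0.65 to -0.395 for DDR1 (adjusted p = 1.02e-06 to 0.00156) and from -0.566 to -0.34 for MRC2 (adjusted p = 3.2e-05 to 0.0193).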

How the results depend on the processing

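Of 669 values of the 40 member results under alternatives, 627 kept their side of the threshold, 12 of them uncalled values (main size at most 0.181) that changed sign. The rest gained or lost a call in the same direction. Each result had 17 alternatives, or fewer where a gene dropped out of the test (15 for ITGA11). The member counts below include ITGA11 calls in comparisons with knockout monolayers. These carry no weight, because that group alone let ITGA11 into the test. Counted with ITGA11, leaving out each library in turn gave 1 to 3 members called for the knockout in monolayers, 1 to 4 for the knockout in gels, 3 to 5 for the gel effect in control cells, 3 to 5 for that in knockout cells, and 2 for the interaction. Over all genes it gave 1848 to 3224 calls (2989 with all libraries) for the knockout in monolayers, 2106 to 3914 (3721) for the knockout in gels, 2144 to 4501 (4158) for gels in control cells and 413 to 1334 (1028) for the interaction. In some of these comparisons counts fell by over 1.5 times without control monolayer 1, knockout monolayer 1, control gel 1, control gel 2 or knockout gel 2. DESeq2 called 1835, 2479, 2431 and 678 genes in these 4 comparisons, and 1 member, MRC2, for the knockout in monolayers, since it gave ITGA11 no adjusted p. The cause of these shifts was not tested.

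With the replicate number as a replicate block, 3187, 3937, 4435, 6108 and 1203 genes were called in the 5 comparisons. ITGA10 in knockout gels then passed (log2 -1.03, adjusted p = 0.047, edgeR, range 1.71e-05 to 0.228 over its alternatives), and no other member call changed. The labels do not say that the numbers pair libraries, and the replicate differences of the groups did not correlate by over 0.1. Depth limits DDR2 and ITGA11, with at most 64 and 32 counts a library.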
